A study of Bos taurus with 8 samples.

Results

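The 10 genes described here make up the steroid pathway of the placenta: STAR, CYP11A1, FDX1, FDXR, HSD3B1, CYP17A1, CYP19A1, HSD17B1, SULT1E1 and STS. They were chosen by function, with earlier results of these data known. Their probes were found by gene name, taken from the scanner files or from the symbol of the probe's accession. That gave 30 of the 51282 probes on the array, with between 2 and 5 probes per gene. All 10 genes, of 16914 named on the array, had at least 1 probe bright enough to test, and 22 of the 30 probes were tested.

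Messenger RNA of 8 samples was measured, each on 1 one-colour Agilent bovine array. Every sample is labelled as fetal cotyledon, the fetal part of the ruminant placentome, and as female. In 4 samples the title reads non-pregnant and the description before pregnancy, and in the other 4 the title reads pregnant and the description after pregnancy. The labels name cattle as the organism, but their protocol names buffalo, with pregnant uteri collected at a slaughterhouse, so the RNA may be buffalo RNA on cattle probes, and the effect of sequence mismatch was not tested. No treatment, breed, age or gestation stage is given for either group. Nothing states that the 4 samples of a group came from separate animals, so the p-values measure the spread between these samples, which may be technical.

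Steroid synthesis starts when cholesterol is carried to the inner mitochondrial membrane, where a cytochrome P450 cuts its side chain to give pregnenolone with electrons passed on by a ferredoxin and its reductase. Pregnenolone is then turned into progesterone, or through androgens into estrogens. In ruminants the trophoblast of the cotyledon makes both hormones, and much of its estrogen is conjugated to sulfate, which inactivates it, while a sulfatase can reverse that step.

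Each probe is a DNA strand of 60 bases. Of the 30 probes, 12 were well above background on all 4 arrays labelled non-pregnant and on no array labelled pregnant, and 6 of them, from 5 genes, are shown as examples. Each is named by its gene and by the base of the transcript where it starts, and is written 5′ to 3′ as in the scanner files.
CYP11A1 probe 792: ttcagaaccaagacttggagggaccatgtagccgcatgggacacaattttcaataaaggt
CYP11A1 probe 1206: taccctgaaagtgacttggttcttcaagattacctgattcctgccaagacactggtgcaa
HSD3B1 probe 723: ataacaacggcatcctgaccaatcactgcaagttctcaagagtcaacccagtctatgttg
CYP17A1 probe 1017: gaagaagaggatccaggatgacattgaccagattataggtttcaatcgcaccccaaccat
SULT1E1 probe 595: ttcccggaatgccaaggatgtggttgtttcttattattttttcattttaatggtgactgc
STS probe 1512: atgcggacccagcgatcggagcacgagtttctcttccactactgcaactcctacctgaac
No member probe shared a run of 25 bases with a probe of another gene. In the build Btau_3.1 the coordinates given for CYP11A1 probe 792 (chromosome 21, 34412806 to 34413739) and for CYP11A1 probe 1206 (34418442 to 34418963) span more bases than the probe holds, as for a sequence that crosses an intron. The other 4 lie within single blocks, HSD3B1 probe 723 at chromosome 3, 25720915 to 25720974, and STS probe 1512 at chromosome X, 86739788 to 86739847. SULT1E1 probe 595 lies at chromosome 6, 88183891 to 88183950, and CYP17A1 probe 1017 on an unplaced scaffold.

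The markers of tissue go against the group labels, so the groups are called by their labels only. Of 12 trophoblast markers 11 were tested and all 11 fell in the arrays labelled pregnant, among them the placental lactogen CSH2 (log2 difference -8.39) and the pregnancy-associated glycoproteins PAG1 (-10.56) and PAG2 (-11.04). The mean log2 level of that list lay between 4.70 and 5.28 on the arrays with the non-pregnant label and between -4.30 and -2.96 on those with the pregnant label. Erythroid markers followed the same side, with 7 of 7 tested genes lower and means of 1.74 to 3.09 against -5.36 to -4.92. Endometrial markers ran the other way, from -4.77 to -3.64 on the arrays labelled non-pregnant to -0.12 to 1.15 on the others, with 6 of 9 tested genes higher. Leukocyte, smooth muscle and endothelial lists were also higher in the arrays labelled pregnant, by 3.52, 2.06 and 1.32 in mean log2 level. Of these lists the leukocyte genes had 7 higher and 2 lower (CSF1R -1.93 and AIF1 -3.09) of 10, the smooth muscle genes 6 higher of 8, and the endothelial genes 3 higher, 1 lower and 4 uncalled of 8. For these 6 lists the 2-sided exact permutation test over arrays gave p = 0.0286, the smallest that 4 against 4 arrays can give. After Benjamini-Hochberg adjustment over the 7 lists compared this p was 0.0333. The lists were chosen with earlier results of these data known, so these p-values are a description only. The part of this difference in tissue make-up in the results below was not tested, and in bulk RNA fewer cells of a type and less RNA per cell cannot be told apart. All 8 arrays lay on 1 slide, where each group filled its own row, so position on the slide and group cannot be told apart. The share of probes well above background ran from 60.6% to 69.5% over the arrays, and no spot was saturated. Array 4 labelled pregnant stood apart from its group, correlating at 0.943 to 0.951 with the other 3 arrays, which correlated at 0.977 to 0.989 with each other.

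**Figure D1:**
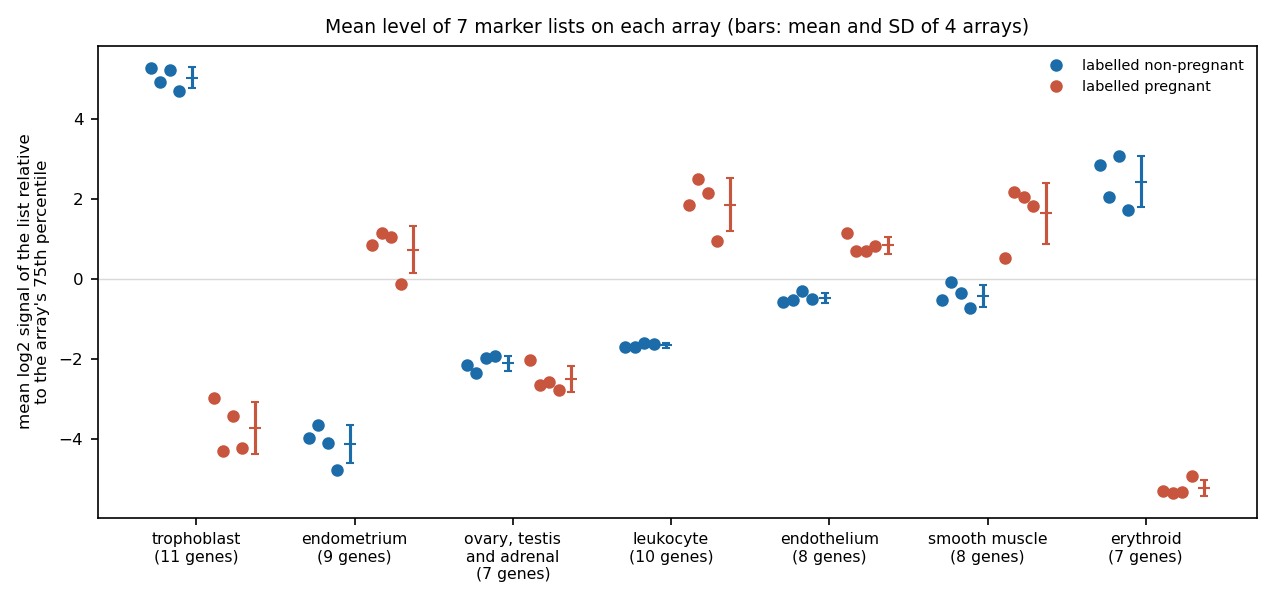
Mean log2 level of 7 lists of tissue markers on each of the 8 arrays, relative to the array's 75th percentile, with bars for the mean and SD of 4 arrays. The trophoblast and erythroid lists sit higher on the arrays labelled non-pregnant, the endometrial, leukocyte, endothelial and smooth muscle lists on those labelled pregnant, and the list for ovary, testis and adrenal differs by -0.41 and overlaps under this scaling, though not without scaling (-0.89).

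Of the 10 genes, 9 fell and 1, HSD17B1, rose in the arrays labelled pregnant, by limma with an adjusted p under 0.05, and the call of HSD17B1 was lost with scaling on the array median and without scaling. Over all 13199 genes tested the same call was made for 62.8%, with 32.9% lower and 29.9% higher. The split of called genes depended on scaling: 47.6% of them were higher here, 34.9% with scaling on the array median and 31.7% without scaling. All 9 genes that fell did so by at least 2-fold, a call made for 48.2% of all genes, 24.3% lower and 23.9% higher. The groups did not overlap for any of the 10 genes, as for 60.2% of all genes (31.8% lower and 28.4% higher). The median log2 difference of the 10 genes was -5.20, or -5.00 with bounded genes at their bound, beside -0.03 over all genes. It was -3.47 with the normexp background correction and -2.07 over the 5 genes whose probe was well above background on all 8 arrays. CYP11A1, CYP19A1 and STS met the brightness filter through the arrays labelled non-pregnant alone, so they had to differ, and the counts above are a description only. Of the 5 genes well above background on all 8 arrays, 4 fell and 1 rose.

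A level is log2 of the processed signal minus the array's own 75th percentile, so 0 stands for a probe as bright as that percentile. The levels are given for arrays 1 to 4 of a group in that order, and arrays of different groups with the same number were not treated as paired. The brightest tested probe on average over the 8 arrays stands for a gene. Differences subtract the mean of the non-pregnant label from that of the pregnant label and come with the standard error (SE), at n = 4 per group. A probe that was not well above background on any array of a group has only a bound there, which sets the bright group's mean against, per array, the higher of the probe's signal and the lowest signal of any probe well above background. Such a bound holds under this scaling and background correction only, and fitted differences with the normexp background correction can be smaller than it.

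**Figure D2:**
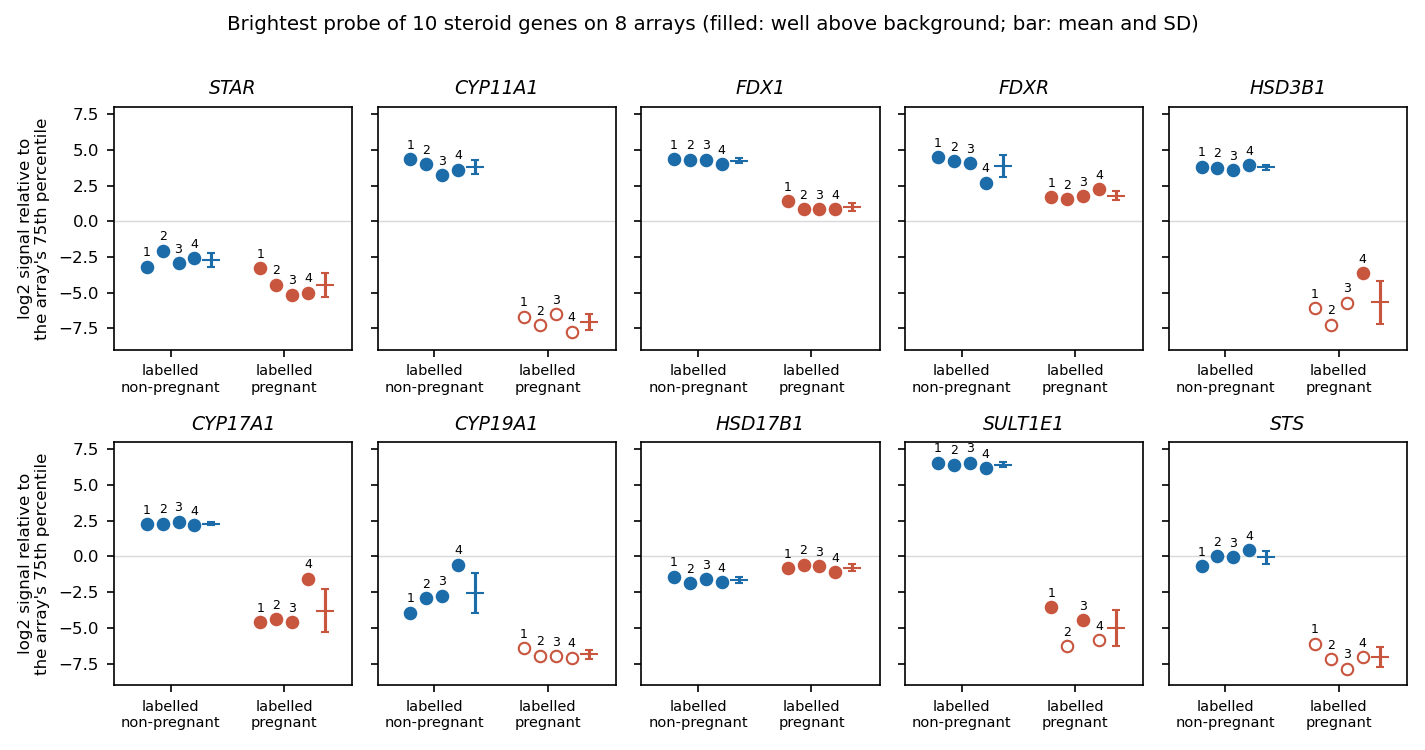
Log2 level of the brightest tested probe of each of the 10 genes on arrays 1 to 4 of each group, relative to the array's 75th percentile, with open circles where the probe was not well above background and bars for mean and SD. SULT1E1, CYP11A1 and HSD3B1 drop from above 3 to below -3, STAR and HSD17B1 differ by only -1.77 and 0.87, and array 4 labelled pregnant stands above the other 3 for CYP17A1 and HSD3B1.

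Cholesterol reaches the side-chain cleavage enzyme with the help of STAR, the steroidogenic acute regulatory protein, which moves it into the mitochondrion. The STAR probe at base 2635 (chromosome 27, 35539145 to 35539204) read log2 levels of -3.18, -2.07, -2.93 and -2.60 on the arrays with the non-pregnant label and -3.29, -4.43, -5.13 and -5.02 on those with the pregnant label. Array 1 labelled pregnant lay just under the lowest array of the other group, with a gap of only 0.11. The log2 difference was -1.77 (SE 0.43, limma adjusted p = 0.00622), among the smallest of the 10 genes, and -0.76 with the normexp background correction. The other 3 STAR probes, at bases 1273, 1289 and 1736, were well above background on no array. Of these, the probes at 1273 and 1289 share a run of 44 bases and so sample nearly the same stretch. STAR RNA was therefore measured by 1 probe alone.

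CYP11A1, the P450 that cuts the cholesterol side chain, was bright in the first group and at background in the other. Its probe at base 1702 (chromosome 21, 34419770 to 34419829) read log2 levels of 4.34, 4.0, 3.24 and 3.62 on the arrays labelled non-pregnant. The same probe read -6.69, -7.28, -6.51 and -7.75 on the arrays labelled pregnant, well above background on none of them. The groups did not overlap. The fall was at least 1195-fold (fitted log2 difference -10.85, SE 0.34, limma adjusted p = 1.17e-07). Over 6 scalings and background corrections the smallest fitted log2 difference was -7.62, a smaller fall than this bound. Both other CYP11A1 probes, shown above, fell too and were dark on every array labelled pregnant. Probe 1206 went from -0.26, 0.70, -0.25 and 1.21 to between -7.99 and -7.25, at least 112-fold lower. Probe 792 went from -4.02, -3.64, -3.45 and -2.12 to between -7.97 and -7.23, at least 8.86-fold lower. The size of the bound thus followed the brightness of the probe on the arrays labelled non-pregnant.

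FDX1, the ferredoxin that hands electrons to mitochondrial P450s, fell without going dark. The FDX1 probe at base 677 (chromosome 15, 18555330 to 18555389) read 4.35, 4.30, 4.32 and 4.0 against 1.40, 0.85, 0.84 and 0.85 in log2 level. The groups were far apart and each was tight apart from 1 array, array 4 being low among the arrays labelled non-pregnant and array 1 high among the others. Its log2 difference was -3.26 (SE 0.20, limma adjusted p = 2.48e-06), a 9.56-fold fall. The second FDX1 probe, at base 1317, gave -3.09 (SE 0.44), with levels of -2.65 to -1.50 against -6.36 to -4.25. The differences of the 2 FDX1 probes lay within their errors of each other.

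FDXR, the reductase that supplies FDX1, fell on 1 of its 2 probes. The FDXR probe at base 1837 (chromosome 19, 58225347 to 58225406) read 4.50, 4.19, 4.07 and 2.71 on the arrays with the non-pregnant label and 1.67, 1.56, 1.75 and 2.23 on those with the pregnant label. Array 4 of each group approached the other group, leaving a gap of 0.48. This gave a log2 difference of -2.07 (SE 0.38, limma adjusted p = 0.00143). The dimmer FDXR probe at base 803 gave -0.92 (SE 0.47, limma adjusted p = 0.116), did not pass, and its groups overlapped, from -5.12 to -3.40 against -5.74 to -4.0.

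HSD3B1, the 3β-hydroxysteroid dehydrogenase that converts pregnenolone into progesterone, fell steeply. The probe at base 1486 (chromosome 3, 25720152 to 25720211) read log2 levels of 3.83, 3.75, 3.57 and 3.91 on the arrays labelled non-pregnant. It read -6.08, -7.25, -5.70 and -3.63 on the arrays labelled pregnant, where only array 4 was well above background. The arrays labelled non-pregnant lay within a span of less than 1 log2 unit, while array 4 labelled pregnant stood above its group. The log2 difference was -9.43 (SE 0.64, limma adjusted p = 4.36e-06) and -10.11 without array 4 labelled pregnant. Over 6 scalings and background corrections the smallest was -7.13. At HSD3B1 probe 723 the levels were -1.36, -1.19, -1.31 and 0.00 against -7.99 to -7.29, at least 45.0-fold lower. The third probe, at base 213, went from -4.74 to -3.72 down to -7.94 to -7.15, at least 4.35-fold lower. Neither of these was well above background on array 4 labelled pregnant, so the signal of that array was seen at the probe at base 1486 only.

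CYP17A1, the 17α-hydroxylase and lyase that leads from progestagens to androgens, fell on both of its probes. The CYP17A1 probe at base 1663 (on an unplaced scaffold) read 2.27, 2.29, 2.44 and 2.19 in log2 level on the arrays labelled non-pregnant. Against this stood -4.60, -4.38, -4.59 and -1.56 on the arrays labelled pregnant, all well above background. Array 4 was again the highest of that group, by about 3 log2 units over the other arrays, which lay close together. Its log2 difference was -6.08 (SE 0.63, limma adjusted p = 4.84e-05) and -6.82 without array 4. CYP17A1 probe 1017 read -3.75, -2.06, -2.46 and -1.43 against -6.71, -7.11, -7.03 and -6.66, at least 16.0-fold lower, and array 4 did not stand apart there. On array 4 labelled pregnant the trophoblast list had a mean of -4.23, within the range of its group, while the endometrial list (-0.12) and the leukocyte list (0.95) were the lowest of their group. Their part in the higher CYP17A1 and HSD3B1 levels of that array was not tested.

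CYP19A1, the aromatase that makes estrogens from androgens, was dim even where it was detected. Its probe at base 4892 (chromosome 10, 59440661 to 59440720) read -3.95, -2.90, -2.74 and -0.57 on the arrays with the non-pregnant label and -6.44, -6.94, -6.97 and -7.09 on those with the pregnant label. The first group was spread over more than 3 log2 units, with array 4 the highest, while the other group was at background throughout. The fall was at least 15.1-fold (fitted log2 difference -4.32, SE 0.61, limma adjusted p = 0.000323), and the fitted difference was -3.66 without array 4 labelled non-pregnant and -1.66 with the normexp background correction. Of the other 4 CYP19A1 probes none was bright enough to test. The probe at base 1620 was well above background on 2 arrays labelled non-pregnant and the probe at base 1920 on 3, both on no array labelled pregnant. The probes at bases 125 and 4293 were well above background on none of the 8 arrays.

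HSD17B1, the 17β-hydroxysteroid dehydrogenase that turns estrone into estradiol, was the only one of the 10 genes that rose. The HSD17B1 probe at base 1493 (chromosome 19, 43967700 to 43967753) read -1.41, -1.86, -1.61 and -1.78 against -0.80, -0.56, -0.69 and -1.12 in log2 level. All 4 arrays labelled pregnant lay above all arrays labelled non-pregnant, with a gap of 0.29. This gave a log2 difference of 0.87 (SE 0.20, limma adjusted p = 0.00441). The call was lost with scaling on the median (0.49, adjusted p = 0.119), without scaling (0.39, adjusted p = 0.162) and with the median over the gene's probes (0.61, adjusted p = 0.0806). This probe ends in a run of 6 A and holds the polyadenylation motif AATAAA with 19 bases after it, and its genomic span is shorter than its length. The probe at base 1073 gave 0.35 (SE 0.41, limma adjusted p = 0.479) with overlapping groups, and the probe at base 666 was well above background on no array. The files place those probes on chromosome 26 and the probe at base 1493 on chromosome 19, so the 3 probes of this name may not report on the same locus.

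SULT1E1, the estrogen sulfotransferase that inactivates estrogens by adding sulfate, had the largest fitted difference of the 10 genes. Its probe at base 1321 (chromosome 6, 88174325 to 88174384) read 6.57, 6.43, 6.57 and 6.18 in log2 level on the arrays labelled non-pregnant. On the arrays labelled pregnant it read -3.54, -6.28, -4.45 and -5.87, well above background on arrays 1 and 3. The arrays labelled non-pregnant were nearly level, and the others were spread over almost 3 log2 units around background. The log2 difference was -11.48 (SE 0.55, limma adjusted p = 7.29e-07), and the smallest over 6 scalings and background corrections was -9.74. In processed intensity SULT1E1 probe 595, shown above, gave 53531, 80388, 25621 and 75148 against 4.61, 6.12, 4.54 and 5.26. That probe was at least 3319-fold lower, the probe at base 735 at least 2457-fold and the probe at base 1116 at least 435-fold. All 4 SULT1E1 probes thus fell, and the last 3 were well above background on no array labelled pregnant.

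STS, the steroid sulfatase that releases steroids from their sulfates, fell together with the sulfotransferase that opposes it. STS probe 1512 read log2 levels of -0.66, 0.00, -0.05 and 0.43 on the arrays with the non-pregnant label and -6.12, -7.19, -7.85 and -7.03 on those with the pregnant label. No array labelled pregnant was well above background, and the groups did not overlap. The fall was at least 80.9-fold (fitted log2 difference -6.98, SE 0.38, limma adjusted p = 1.34e-06), and the fitted difference was -3.73 with the normexp background correction. The STS probe at base 1304 (chromosome X, 86754000 to 86766726, a span that crosses introns) was at least 25.1-fold lower, from -2.74, -2.05, -1.52 and -0.59 to between -7.09 and -6.01.

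Over all probes of the 10 genes, 19 of the 22 tested fell, 1 rose and 2 did not pass, while 59.4% of all 34627 tested probes were called (29.1% lower and 30.3% higher). Of the 19 that fell, 12 met the brightness filter through the arrays labelled non-pregnant alone, so they had to differ. The counts in this paragraph are a description only. Of the 8 genes with several tested probes, 6 fell on every one of them, namely CYP11A1, FDX1, HSD3B1, CYP17A1, SULT1E1 and STS. FDXR and HSD17B1 each had 1 called and 1 uncalled probe. Of the 8 untested probes, 6 were well above background on no array. CYP11A1, CYP19A1 and STS were well above background on no array labelled pregnant with any probe, HSD3B1 on 1 array and SULT1E1 on 2, while STAR, FDX1, FDXR, CYP17A1 and HSD17B1 were above it on all 8 arrays. All 10 genes were well above background on every array labelled non-pregnant.

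**Figure D3:**
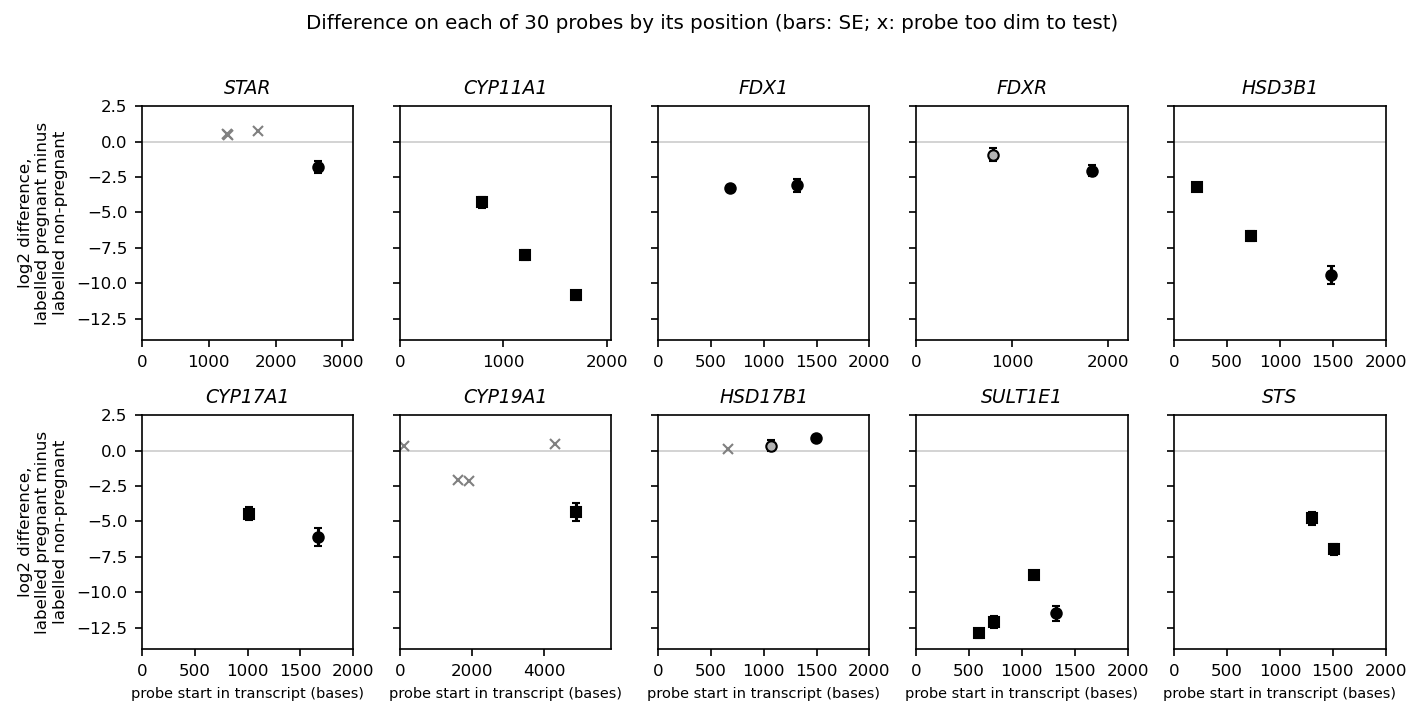
Log2 difference of each of the 30 probes, labelled pregnant minus labelled non-pregnant, against the base of the transcript where the probe starts, with bars for the SE. Squares mark tested probes that were well above background on no array labelled pregnant, circles the other tested probes (grey if not called) and crosses the 8 probes too dim to test. The fitted differences of CYP11A1 run from -4.28 at base 792 to -10.85 at base 1702, and those of SULT1E1 stay below -8 at all 4 probes.

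Arrays labelled non-pregnant also differed in how probes of 1 transcript compared. The upstream minus downstream level was taken for 3962 transcripts with 2 probes at least 300 bases apart, both well above background on all arrays. Centred per transcript over all 8 arrays, it had medians of -0.34, -0.06, -0.19 and 0.48 on the arrays labelled non-pregnant. On those labelled pregnant the medians were between 0.04 and 0.10. For the 7 genes with at least 2 probes well above background on all arrays labelled non-pregnant, the first and last such probe gave the lowest value on array 1 in 5 genes and the highest on array 4 in 5. These values are of single genes and were centred over the arrays labelled non-pregnant only. Their sizes are therefore not comparable with the medians above. CYP11A1 ranged from -1.25 on array 1 to 1.37 on array 4, FDXR from -1.81 to 1.52 and CYP17A1 from -1.30 to 1.1. FDX1 went the other way, from 0.72 on array 1 to -0.32 on array 4, and SULT1E1 was lowest on array 3 (-1.01). The STS probes, at bases 1304 and 1512, lie closer together than the 300 bases required of the other transcripts. The upstream CYP11A1 probe 792 was likewise lowest on array 1 and highest on array 4, and the part of that measure in the spread of these levels was not tested.

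Genes around these enzymes were described by list. Among genes of cholesterol supply and transfer, 11 of 13 were tested, of which 4 fell, 3 rose and 4 did not pass, with a median log2 difference of -0.96 beside -0.03 over all genes. That is 63.6% called, close to the 62.8% of all genes, and with scaling on the array median or without scaling 6 fell and 1 rose. NPC2, which takes cholesterol out of the lysosome, fell by 3.18 on the log2 scale, from levels of 6.96 to 7.38 down to 3.51 to 4.30. STARD5, a sterol carrier related to STAR, differed by -2.62, SOAT1, which esterifies cholesterol, by -1.83 and NPC1, the membrane partner of NPC2, by -1.67. TSPO, a cholesterol-binding protein of the outer mitochondrial membrane, rose by 1.38. The rises of STARD3 (0.83) and of the lysosomal lipase LIPA (0.76) were called under only 3 and 4 of 6 scalings and background corrections. Among uncalled genes SCARB1, which takes up lipoprotein cholesterol, differed by -0.96 (SE 0.42), with 1 other probe called lower, and ACBD3 by -0.03.

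Electron partners other than FDX1 and FDXR were listed with further mitochondrial P450s. Of these 9 genes 6 were tested, 1 fell, 1 rose and 4 did not pass, with a median of 0.04. The share called was 33.3%, below the 62.8% of all genes. Quantile normalization gave 1 lower and 3 higher, and the fit without a filter on dim probes 3 lower and 1 higher. POR, which feeds electrons to CYP17A1 and CYP19A1, differed by -0.08 (SE 0.21), CYB5A, which aids the lyase step of CYP17A1, by -0.11 (SE 0.22) and CYB5R3, a reductase of cytochrome b5, by 0.24 (SE 0.17). None of the 3 passed, but of the other CYB5A probes 2 were called lower, and 1 other CYB5R3 probe was called higher. FDX2, the ferredoxin of iron-sulfur cluster assembly, differed by 0.15 (SE 0.24), beside the fall of 3.26 of FDX1. CYB5B, the outer mitochondrial cytochrome b5, fell by 2.91 and CYP27A1, the mitochondrial sterol 27-hydroxylase, rose by 2.32.

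Of 28 other enzymes of steroid metabolism 25 were tested, 9 fell, 6 rose and 10 did not pass, with a median of -0.41. The share called, 60.0%, lay near the 62.8% of all genes, and with scaling on the array median 12 fell and 5 rose. CYP1B1 and AKR1D1 met the brightness filter through 1 group alone, so they had to differ. CYP1B1, which hydroxylates estrogens, was dark on the arrays with the non-pregnant label. It was at least 62.0-fold higher on those with the pregnant label (levels of -1.71, -1.07, -1.28 and -1.16). Over 6 scalings and background corrections its smallest fitted log2 difference was 3.37, a smaller rise than this bound. AKR1D1, the 5β-reductase, was at least 25-fold lower, and its smallest fitted log2 difference over the same settings was -2.19. HSD17B2, which oxidises estradiol back to estrone, fell by 4.93 (SE 0.99) and was well above background on 1 array labelled pregnant. HSD11B1, which forms active cortisol, rose by 3.17, and AKR1B1, an aldo-keto reductase with prostaglandin synthase activity, fell by 2.91. Among uncalled genes HSD17B8 differed by -0.41 and the phenol sulfotransferase SULT1A1 by 0.51, with 1 other SULT1A1 probe called higher and 1 called lower.

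Of 12 genes of sulfation and sulfate transport, 11 were tested, 4 fell, none rose and 7 did not pass, with a median of -0.20. The share called, 36.4%, lay below the 62.8% of all genes. PAPSS2, which makes the sulfate donor PAPS used by SULT1E1, fell by 5.04 (SE 0.34, limma adjusted p = 3.9e-06), from levels of 1.12 to 2.42 down to -3.69 to -2.58. Its paralogue PAPSS1 differed by -0.20 (SE 0.19) and did not pass. SLCO2B1, a carrier of estrone sulfate and other steroid sulfates, fell by 1.87, and BPNT1, which clears the product of the sulfate donor, by 1.07. SUMF2, a relative of the sulfatase-activating SUMF1, fell by 0.93, a call made under 4 of 6 scalings and background corrections. SUMF1 itself, which activates sulfatases such as STS, differed by 0.33 (SE 0.20), and the export pump ABCC1 by 0.41 (SE 0.43).

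Of 19 transcription factors known to act on steroid enzymes 17 were tested, 7 fell, 5 rose and 5 did not pass, with a median of -0.53. The share called, 70.6%, lay near the 62.8% of all genes. TFAP2A fell by 6.14, from levels of 3.74 to 4.88 down to -2.24 to -1.58, and TFAP2C and GATA3, which like it are trophoblast factors, fell by 2.43 and 4.87. NR2F1, an orphan nuclear receptor, rose by 3.26 and NR5A2, which binds promoters of steroid enzymes, by 2.61. NR5A1, the regulator of steroid synthesis in gonad and adrenal, was well above background on 1 array at most and was not tested. GATA4 (-0.57), CREM (-0.41) and CEBPB (1.06) did not pass.

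Steroid receptors carry the signal of these hormones into target cells. Of 9 genes 6 were tested, 1 fell, 3 rose and 2 did not pass, with a median of 2.07, or 1.97 with bounds. The share called was 66.7% beside 62.8% of all genes, and among probes well above background on all 8 arrays 1 receptor fell and none rose. ESR1 and NR3C2 met the brightness filter through the arrays labelled pregnant alone, so they had to differ. PGR, the progesterone receptor, rose by 8.13 (SE 0.47) from levels of -6.56 to -6.05 to 2.49, 2.19, 2.27 and 0.22. ESR1, the estrogen receptor, was at least 14.5-fold higher and NR3C2, the mineralocorticoid receptor, at least 10.3-fold higher in the arrays labelled pregnant. Over 6 scalings and background corrections their smallest fitted log2 differences were 1.93 and 1.47, smaller than these bounds. Of the membrane components PGRMC2 fell by 1.09 and PGRMC1 differed by 0.57, while the glucocorticoid receptor NR3C1 differed by 0.53, and neither of the last 2 passed. PGR and ESR1 also belong to the endometrial markers.

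**Figure D4:**
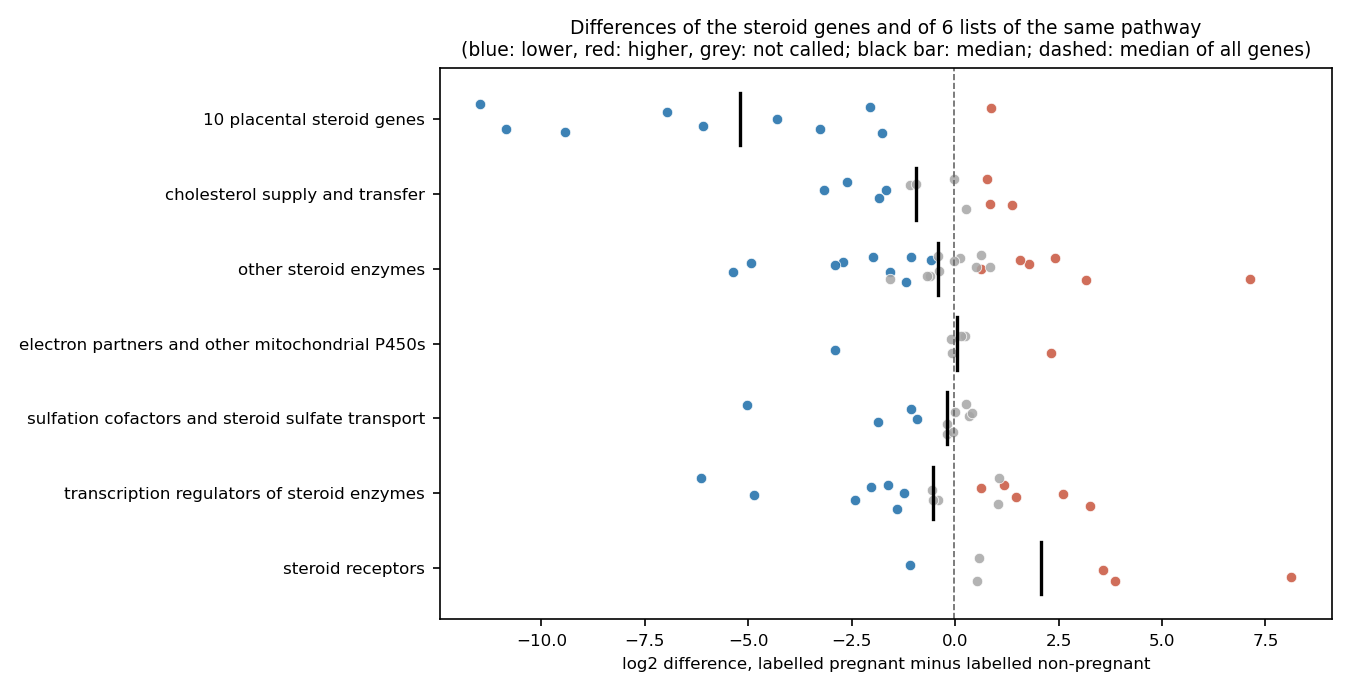
Log2 difference, labelled pregnant minus labelled non-pregnant, of each tested gene among the 10 steroid genes and 6 lists around them, blue for lower, red for higher and grey for not called, with black bars for medians and a dashed line for the median of all genes (-0.03). The 10 genes have a median of -5.20, while the medians of the other lists lie between -0.96 and 2.07.

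Markers of other steroid-making tissues were mixed. Of 10 genes listed for ovary, testis and adrenal, 7 were tested, 2 fell, 2 rose and 3 did not pass. The share called, 57.1%, lay near the 62.8% of all genes. The mean log2 level of the list was -2.34 to -1.93 on the arrays labelled non-pregnant and -2.78 to -2.03 on the others (difference -0.41, 2-sided exact permutation p = 0.0857). With scaling on the array median it differed by -0.80 and without scaling by -0.89, both at p = 0.0286 by the same exact test. This list too was chosen with earlier results of these data known, so these p-values are a description only. The gonadotropin receptors FSHR and LHCGR were well above background on no array. CYP11B1, the adrenal 11β-hydroxylase, differed by 0.12 and AMH, anti-Müllerian hormone, by 0.57, neither of which passed, while another CYP11B1 probe was called lower and another AMH probe higher. AMHR2, the receptor of AMH, fell by 5.20.

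The profile of CYP11A1 over the 8 arrays, each gene centred on its own mean, was set against that of every other tested gene. The nearest were ATP6V1G3, a proton pump subunit, with a root mean square distance of 0.28 log2 units, LOC504812 (0.35), PLET1, a trophoblast surface protein (0.42), NPPC, a natriuretic peptide precursor (0.47), and DKK4, a Wnt antagonist (0.48). All except DKK4 were, like CYP11A1, well above background on no array labelled pregnant, so their order there is that of background signal.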

How the data were processed

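The scanner files deposited by the authors hold spot intensity values. Per the file headers, Agilent Feature Extraction 11.5.1.1 made them with protocol GE1_1105_Oct12. Per the labels' protocols, RNA was purified with a DNase step, copied from an oligo-dT primer, amplified and labelled with Cy3. A second deposited table holds log2 values whose scale and centring are known only from these values, and which served as an alternative. Set against the scanner values of each array, r was at least 0.999, with 75th percentiles near 0. Its column medians were -4.21, -4.01, -4.0 and -3.77 in the non-pregnant group and -3.56, -3.61, -3.64 and -3.61 in the pregnant group.

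Here log2 of the processed intensity minus the array's 75th percentile was used. The 1319 control spots per array and 119 outlier spots were left out, and spots of a probe were averaged. A probe counted as well above background where at least 0.5 of its spots had that deposited flag, and the 34627 probes with it on at least 4 of the 8 arrays were tested. The test was limma 3.58.1 (lmFit, eBayes; R 4.3.3) without covariates, checked on simulated data. P-values were adjusted after Benjamini and Hochberg over the tested probes, with a threshold of 0.05. The number of arrays limits the precision.

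Names came from the files and from a cattle reference table (assembly ARS-UCD2.0, names only): 28112 probes matched by accession, 1775 by another accession, 5523 by symbol and 159 by synonym, and 15713 kept the file's name. Coordinates are those of the files, whose headers name Btau_3.1. Exon and untranslated-region annotation of probes, and promoters, were not used here.

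The members and lists were chosen with earlier results of these data known. From each list around the pathway the text names up to 5 called genes with the largest difference and up to 3 uncalled genes with the highest mean signal, from each marker list up to 3 genes with the highest mean signal and any that was never above background, and the 5 genes nearest to CYP11A1. Where a list is summed up without its genes, those values are not repeated. A few genes that this rule would name are not reported here. CYP11B1 and FOXL2 stand in 2 lists each, as do PGR and ESR1. Alternatives were 4 other scalings, the normexp background with offset 50, the deposited table, no filter and a filter on all 8 arrays, the median over a gene's probes, array weights, a replicate block and leaving out each array.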

Additional observations from a re-analysis of the deposited data

Results flagged for a closer look

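Dixon's test was run on the 4 arrays of each group for 34 sets of values, and a ratio above the critical value for 4 values marked an array far from the other 3. Chance alone marks about 1 set in 20. Of the 4 sets marked, 3 were of the steroid genes. FDX1 had a ratio of 0.876 on the arrays labelled non-pregnant, where array 4 was low at 4.0, and 0.984 on those labelled pregnant, where array 1 was high at 1.40. CYP17A1 had a ratio of 0.928 on the arrays labelled pregnant, where array 4 was high at -1.56 beside -4.60 to -4.38 for the others. The mean of the erythroid markers had a ratio of 0.890 on the arrays labelled pregnant, where array 4 was the highest at -4.92.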

How the results depend on the processing

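Of the 10 genes, 9 kept their direction and their call under every alternative that gave them a value. HSD17B1 kept its direction but lost its call with scaling on the median (0.49, adjusted p = 0.119), with no scaling (0.39, adjusted p = 0.162) and with the median over its probes (0.61, adjusted p = 0.0806). The median over all genes moved from -0.03 to -0.41, -0.51 and 0.14 with the median, no scaling and the percentile over probes detected on all arrays. With only probes well above background on all 8 arrays, 5 members had a value and all 5 were called, and CYP11A1, HSD3B1, CYP19A1, SULT1E1 and STS had none. The same filter left 1 of 4 calls among receptors. Electron partners and other mitochondrial P450s had 4 calls with quantile normalization and 4 without a filter, against 2. The ovary, testis and adrenal list differed by -0.80 with the median and -0.89 without scaling (exact permutation p = 0.0286 each), and the smooth muscle list by 1.57 without scaling (p = 0.0571). The cause of these changes was not tested, except that the filter tests fewer genes.

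Leaving out 1 array at a time gave 7449 to 8465 called genes against 8284, and 10 called members each time. Without 1 array, 4 against 3 can give no exact p below 0.0571. Correlations of deviations between same-numbered arrays of the groups were 0.01, 0.08, 0.05 and 0.15, beside -0.11 to 0.05 between arrays with different numbers. These values cannot settle whether replicate numbers pair the samples, and the main fit did not pair them. With the replicate number as a block, 8049 genes and all 10 members were called. Depth is not the limit on an array, but for the 3 members at background in 1 group only a bound was measured. The fitted differences of HSD3B1 and SULT1E1 also rest in part on arrays where the probe was at background.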
